A study of Homo sapiens with 11 samples.

Results

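Peaks that ZFP36L2 immunoprecipitation gave in the parts of introns close to an exon are described here. They are the rows that the authors labelled exactly "Proximal intron" in their tables of peaks over input. The tables hold 67083 peaks in 4 immunoprecipitates, and 4552 of them, 6.79%, carry that label, while peaks with the separate label for noncoding transcripts are left out. The choice used the region label and no fold, although every row of the tables had already passed thresholds of 3 on both the log2 fold over input and the −log10 p. The distance from an exon that makes an intron position proximal is stated in no source used here.

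The peaks come from enhanced crosslinking and immunoprecipitation (eCLIP), in which ultraviolet light joins a protein to the RNA it touches and the RNA fragments that come down with an antibody to the protein are sequenced. MOLM13 and THP1 are established human lines of acute myeloid leukaemia, and neither carried a stated genetic change or drug treatment. From each line, ZFP36L2 antibody gave 2 immunoprecipitates and control IgG another 2, and there were 2 input libraries of MOLM13 and 1 of THP1, an input being a portion of the lysate set aside before immunoprecipitation. Both lines were grown in the same medium and crosslinked with the same dose of 254 nm light, 400 mJ/cm2. The THP1 replicates may share their input as denominator, and no label ties duplicates to separate cultures, so their spread may be technical.

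ZFP36L2 belongs to the TIS11 family of zinc finger proteins, which bind AU-rich stretches in the 3′ UTR of mRNAs and recruit the enzymes that shorten the poly(A) tail. The family is known mainly for this work in the cytoplasm, but its members also enter the nucleus, where introns are still part of the transcript. Intron sequence next to an exon holds elements that splicing factors read, such as the polypyrimidine tract and the branch site.

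Sequence under the peaks could be read for 1 gene, MOSMO, which encodes a modulator of Smoothened, because its proximal intron peaks were the ones that fell in a RefSeq promoter window on the same strand (GRCh38.p14). The stretch below, chr16:22007951-22008017 on the plus strand, is shared by peaks of both MOLM13 replicates and of THP1 replicate 2. It is shown because its place goes against its label, and no letters are in capitals since no motif was marked.
MOSMO: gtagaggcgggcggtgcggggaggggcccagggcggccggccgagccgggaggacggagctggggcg
The 67 bases end 94 bases upstream of the RefSeq start of MOSMO at 22008111, so by RefSeq they are not intron. G and C make up 83.6% of them, against a median of 58.7% over 35116 RefSeq promoter windows. The element ATTTA, the core of the AU-rich sites of the TIS11 family, is not in these letters, and it is in 18.8% of those windows, each of which is longer than this stretch. Over input, the peaks on this stretch had a log2 fold of 4.54 and 4.04 in the MOLM13 replicates and of 4.67 in THP1 replicate 2. Over IgG, the same peaks had 1.56 and −0.77 in the MOLM13 replicates and −1.86 in THP1 replicate 2. They were therefore above input in 3 libraries and below IgG in 2 of these.

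MOLM13 had 994 and 966 proximal intron peaks in its replicates, and THP1 had 1321 and 1271. They made up 6.89% and 6.70% of all input peaks in MOLM13, against 6.84% and 6.72% in THP1. The share averaged 6.79% ± 0.13 in MOLM13 libraries, against 6.78% ± 0.079 in THP1 libraries (SD, n = 2 each), and the exact permutation test over the 4 libraries gave p = 1. With 2 libraries per line the smallest p that this test can give is 0.333. THP1 had more proximal peaks, and it had more peaks of all kinds together, so the shares of the lines differed by less than the spread of duplicates.

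A proximal peak was a short stretch, with a median length of 67 and 64.5 bases in the MOLM13 replicates and 69 and 64 bases in THP1. The authors' tables divide some sites into touching peaks. Once touching peaks were joined, 832 and 739 regions remained in MOLM13, against 1028 and 985 in THP1. Between 77.4% and 84.0% of those regions were 1 single peak, and between 92.9% and 94.1% touched no peak with another label. They lay in 664 and 606 genes in MOLM13, and in 838 and 802 genes in THP1.

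Enrichment over input differed by less than the spread of libraries between the intron classes, and it was higher than in 3′ UTRs. The median log2 fold of proximal peaks was 4.59 and 4.43 in the MOLM13 replicates, against 4.62 and 4.62 in THP1. Distal intron peaks, those farther from an exon, had medians of 4.57 and 4.50 in MOLM13, against 4.65 and 4.63 in THP1. Proximal minus distal averaged −0.024 ± 0.039 (SD, n = 4), with an exact sign-flip p = 0.375 over the 4 libraries, where 0.125 is the smallest possible. In 3′ UTRs the medians were lower, 3.97 and 4.04 in MOLM13, against 4.05 and 4.02 in THP1. Proximal minus 3′ UTR averaged 0.54 ± 0.11 (SD, n = 4), higher in 4 of 4 libraries, with an exact p = 0.125 and an adjusted p = 0.25 over the 14 differences computed.

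The IgG control gave another order. A peak over input was called enriched over IgG when the authors' values for the same coordinates reached a log2 fold of 3 and a −log10 p of 3. This held for 407 of 994 and 213 of 966 proximal peaks in the MOLM13 replicates, and for 516 of 1320 and 730 of 1270 in THP1, where 1 peak per replicate had no IgG row. Those are 40.9% and 22.0% in MOLM13, against 39.1% and 57.5% in THP1. Among all peaks over input the shares were 45.0% and 28.1% in MOLM13, against 43.2% and 59.1% in THP1. The proximal share was thus below that of all peaks in each library, by less than the gap between duplicates.

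Distal intron peaks had shares of 40.6% and 19.9% in MOLM13, against 41.5% and 59.1% in THP1. Proximal minus distal averaged −0.38 percentage points ± 2.04 (SD, n = 4; exact sign-flip p = 0.875), so no difference between the intron classes was seen beyond the spread of libraries. In 3′ UTRs the shares were 59.0% and 49.7% in MOLM13, against 54.6% and 65.1% in THP1. Proximal minus 3′ UTR averaged −17.2 percentage points ± 8.27 (SD, n = 4), lower in 4 of 4 libraries. The exact p was 0.125, the smallest possible, and 0.25 after adjustment. Intron peaks next to exons were therefore higher over input than 3′ UTR peaks and less often above IgG, in every library, in a design that cannot pass a threshold of 0.05.

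**Figure D1:**
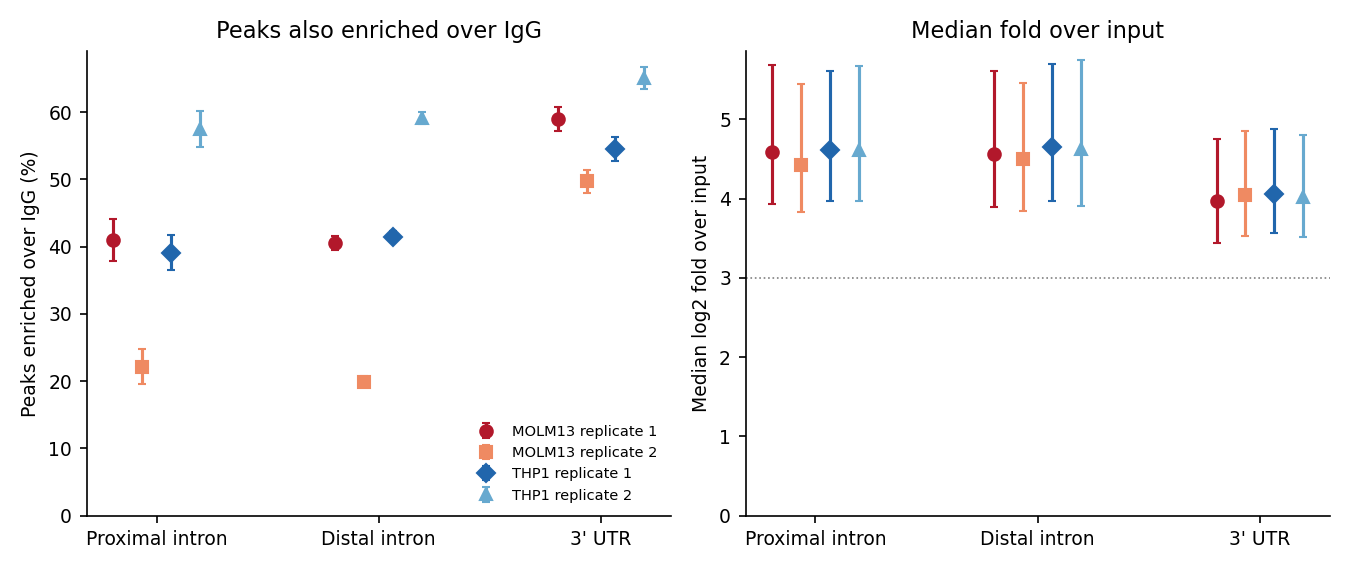
Left, the share of input peaks also enriched over IgG (%) for proximal intron, distal intron and 3′ UTR peaks, 1 point per immunoprecipitate with its 95% Wilson interval. Right, the median log2 fold over input with bars from the lower to the upper quartile and a dotted line at the authors' threshold of 3. Proximal peaks lie with distal ones in both panels, below the 3′ UTR on the left and above it on the right.

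MOLM13 replicate 2 was the low library and THP1 replicate 2 the high one. The median log2 fold over IgG of proximal peaks was 2.98 and 2.40 in the MOLM13 replicates, against 2.89 and 3.51 in THP1. The share enriched over IgG averaged 31.5% ± 13.4 in MOLM13 libraries, against 48.3% ± 13.0 in THP1 libraries (SD, n = 2 each; exact permutation p = 0.667). MOLM13 replicate 1 lay above THP1 replicate 1, so the lines overlap. Over all clusters of a library, peaks or not, the median log2 fold over IgG was 0.28 and −0.60 in MOLM13, against 0.0019 and 0.38 in THP1, which moves with the proximal shares, and its part in them was not tested.

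The authors' folds move in steps, and numbers of reads behind a peak can be inferred from them. In each library every fold over input of a proximal peak is a fixed value times a ratio of small whole numbers, and every fold over IgG is another fixed value times such a ratio. With these values a single whole number of immunoprecipitate reads and whole numbers of input and IgG reads account for 994 of 994, 966 of 966, 1320 of 1320 and 1270 of 1270 proximal peaks, to within 1e-05 of a whole number. With a step about 1% larger the same search accounts for 15, 27, 34 and 39 of them. These are implied numbers that no file states. Each is the smallest that gives the fold, and an implied control count of 1 may also be a stand-in for no read. A whole multiple of a step would give whole numbers too, so the match does not fix the counts. Taking the smallest numbers can also raise the share of counts at 1.

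By this measure, and with the step chosen, the implied input counts at these sites were low. The implied input count was 1 at 64.0% and 70.2% of proximal peaks in the MOLM13 replicates and at 70.6% and 70.6% in THP1. The same held for 62.9% and 68.5% of distal peaks in MOLM13, against 69.5% and 65.6% in THP1. For 3′ UTR peaks it held for 29.0% and 31.1% in MOLM13, against 34.7% and 31.6% in THP1. Proximal minus 3′ UTR averaged 37.3 percentage points ± 2.11 (SD, n = 4), higher in 4 of 4 libraries (exact sign-flip p = 0.125; adjusted p = 0.2 over 8 differences). Proximal minus distal averaged 2.22 ± 1.86, also higher in 4 of 4, with the same exact p. With the step chosen, a fold over input at a proximal peak is in most cases set against an implied input count of 1.

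The median proximal peak had 41 and 69 implied immunoprecipitate reads in the MOLM13 replicates, against 68 and 50 in THP1. With 1 input read, the fold threshold needed 10 and 19 reads in MOLM13, against 17 and 13 in THP1. With 1 IgG read, it needed 20 and 49 reads in MOLM13, against 40 and 25 in THP1. MOLM13 replicate 2, with the lowest IgG share, needed the most reads. The libraries that needed 20 and 25 had the higher share within their line. The part of the needed reads in the shares was not tested.

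A peak could miss the IgG threshold with hardly any IgG reads of its own. Of the proximal peaks that missed it, 26.6% and 25.5% in the MOLM13 replicates, against 38.4% and 55.6% in THP1, had an implied IgG count of 1. For these peaks a failure says only that enrichment over IgG was not detectable at this depth. A count of 1 was about as common among all proximal peaks, 26.7% and 26.9% in MOLM13, against 38.9% and 54.6% in THP1. More than 5 implied IgG reads stood at 16.9% and 17.6% of all proximal peaks in MOLM13 and at 10.1% and 5.04% in THP1. A log2 fold over IgG of 1 or less was found at 15 and 88 proximal peaks in MOLM13 and at 33 and 16 in THP1. Those are 1.51% and 9.11% in MOLM13, against 2.5% and 1.26% in THP1. The shares of distal peaks were 1.87% and 9.63% in MOLM13, against 1.80% and 0.27% in THP1. In 3′ UTRs they were 1.20% and 1.62% in MOLM13, against 1.29% and 0.83% in THP1.

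The share enriched over IgG climbed with the fold over input, and both folds hold the same immunoprecipitate reads, so the climb is a description. For proximal peaks with a log2 fold over input of 3 to 4, the share was 14.0% and 7.50% in the MOLM13 replicates, against 8.86% and 18.3% in THP1. For those with 6 or more, it was 82.0% and 55.1% in MOLM13, against 85.5% and 99.6% in THP1. In THP1 replicate 2 only 1 of 239 peaks in the highest class missed the IgG threshold.

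**Figure D2:**
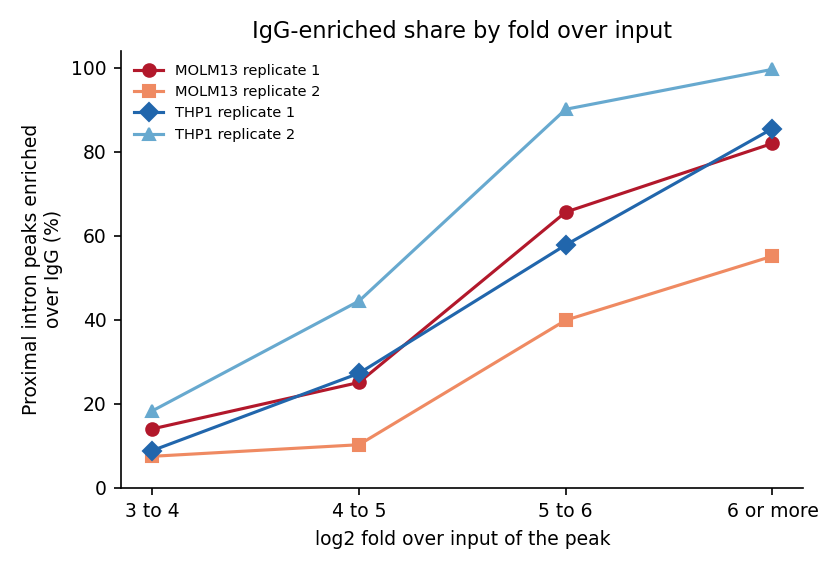
Share of proximal intron peaks enriched over IgG (%) in 4 classes of log2 fold over input, 1 line per immunoprecipitate. The share climbs in each library, to between 55.1% and 99.6% in the highest class, and MOLM13 replicate 2 is the lowest throughout.

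Most proximal peaks were found again in the other replicate. At least 1 base on the same strand was shared with any input peak of the other replicate for 80.0% and 88.3% of proximal peaks in MOLM13 and for 84.6% and 88.2% in THP1. With a partner that was itself labelled proximal, the shares were 77.3% and 85.5% in MOLM13, against 81.8% and 85.5% in THP1. Distal peaks overlapped at nearly the same rate, with proximal minus distal at 0.063 percentage points ± 0.57 (SD, n = 4; exact sign-flip p = 0.875). Only 27 to 37 peaks per library had a partner with another label alone, most often the 5′ splice site or distal intron. In 3′ UTRs the overlap was lower, 74.7% and 75.2% in MOLM13, against 76.3% and 77.7% in THP1. Proximal minus 3′ UTR averaged 9.29 percentage points ± 3.32 (SD, n = 4), higher in 4 of 4 libraries, with an exact p = 0.125 and an adjusted p = 0.25.

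In MOLM13, 768 proximal peaks of replicate 1, in 519 genes, overlapped a proximal peak of replicate 2, and in THP1 it was 1080 peaks in 686 genes. Across those pairs the log2 folds over input of the replicates correlated with r = 0.76 in MOLM13 and r = 0.77 in THP1, and the folds over IgG with r = 0.44 and r = 0.47. These describe peaks of the same libraries, and the inputs, mostly at 1 implied read, enter both axes. Of the 768 MOLM13 peaks, 161 were enriched over IgG in both replicates, 21.0%, and 347 in neither. Of the 1079 THP1 peaks with IgG values on both sides, 436 were enriched in both and 309 in neither, and the 436 are 40.4% of the 1080. Peaks enriched in 1 replicate alone were mostly those of replicate 1 in MOLM13, 218 against 42, and of replicate 2 in THP1, 279 against 55.

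Joined over the 4 libraries, proximal peaks made 1418 regions. Of these, 584 overlapped an input peak of any label in each library, 41.2%, and 356 did so in 1 library alone, 25.1%. By the same count, distal regions were in all 4 in 36.8% of 12398 cases and 3′ UTR regions in 27.9% of 4296. Counted from MOLM13 replicate 1, 685 of its 994 proximal peaks, 68.9%, overlapped an input peak of any label in the other 3 libraries.

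Presence in a library here again means an input peak of any label. Regions found in both replicates of MOLM13 were also found in both of THP1 in 85.1% of 686 cases, and the reverse held for 65.0% of 898. In both replicates of 1 line and in neither of the other stood 52 MOLM13 regions and 197 THP1 regions. At 39 of the 52 and 147 of the 197, the other line still had clusters in both replicates that fell short of the input thresholds. Regions of 1 line had lower folds, as a description, since the threshold itself decides membership. The median log2 fold over input was 4.01 and 3.88 for the MOLM13 regions and 4.13 and 4.21 for the THP1 regions. Regions found in all 4 libraries had medians of 5.08 and 4.73 in MOLM13, against 5.30 and 5.19 in THP1.

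Among the 584 regions, 511 could be followed as 1 site with a proximal peak in each library, and they lay in 451 genes. The IgG call of a site in a library was that of its peak with the highest fold over input. A site can therefore count as not enriched although another of its peaks passed. By this call, all 4 libraries were enriched over IgG at 87 of the 511 sites and none at 57. Within a line, 118 were enriched over IgG in both MOLM13 replicates and 271 in both THP1 replicates.

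**Figure D3:**
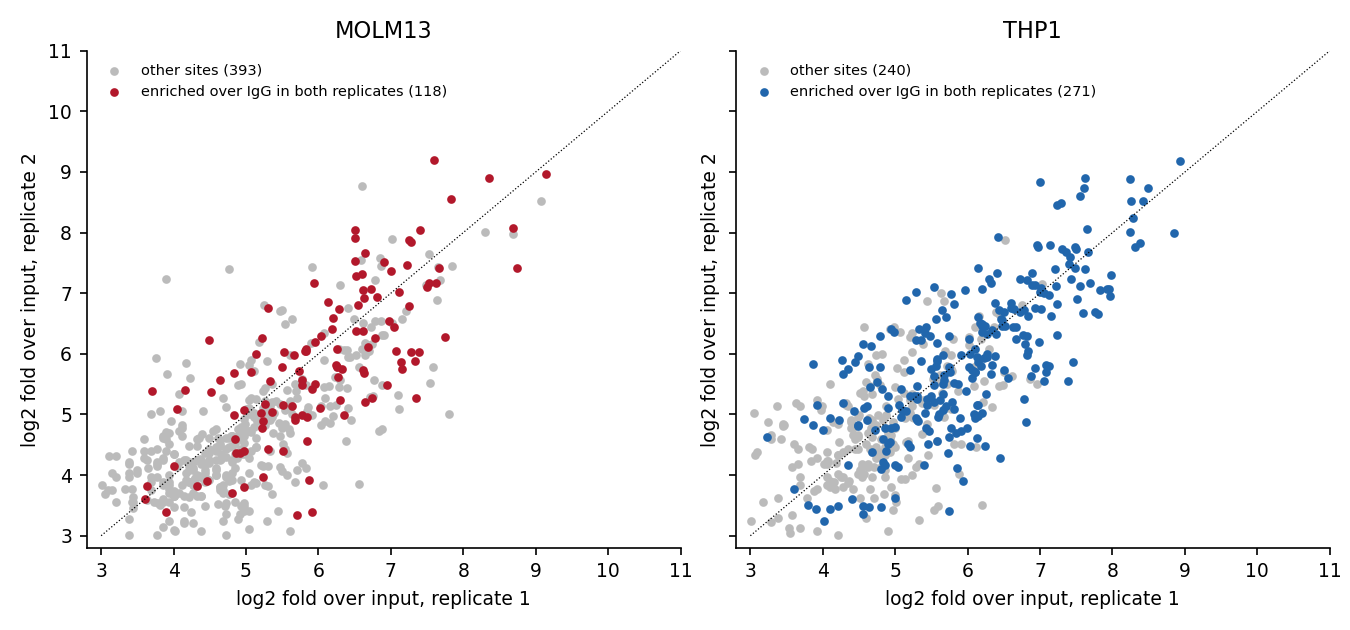
Log2 fold over input of replicate 2 against replicate 1 for the 511 sites with a proximal intron peak in all 4 libraries, MOLM13 on the left and THP1 on the right, with a dotted line of equal folds. Coloured points were enriched over IgG in both replicates of the line, 118 in MOLM13 and 271 in THP1. The call was made at the peak of the site with the highest fold over input. Coloured points lie mostly towards the upper right.

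Among sites with a proximal peak in all 4 libraries, those named first were ranked by the lowest fold over input among the libraries, so these folds, and their presence in both lines, are a description. GIT2, which encodes a GTPase-activating protein for ARF proteins, led the list with a site at chr12:109939578-109939693 on the minus strand. Its log2 fold over input was 9.14 and 8.97 in the MOLM13 replicates, against 8.24 and 8.88 in THP1. Over IgG it was 4.25 and 3.15 in MOLM13, against 3.47 and 5.88 in THP1. At the highest of its peaks MOLM13 replicate 1 had 702 implied immunoprecipitate reads, 1 input read and 15 IgG reads. At the peak with the highest fold over input, GIT2 was enriched over both controls in all 4 libraries.

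PTPN11, the tyrosine phosphatase SHP2 that relays growth factor signals, had its site at chr12:112453501-112453599 on the plus strand. Its log2 fold over input was 8.30 and 8.02 in MOLM13, against 8.93 and 9.18 in THP1, and over IgG 3.51 and 2.86 in MOLM13, against 4.36 and 5.85 in THP1. FES, a tyrosine kinase of myeloid cells, had 8.69 and 7.98 over input in MOLM13, against 8.32 and 7.77 in THP1, at chr15:90888773-90888852. FES had 3.24 and 2.46 over IgG in MOLM13, against 4.01 and 5.76 in THP1. At PTPN11 and FES alike, MOLM13 replicate 2 was the library that missed the IgG threshold.

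RNF130, a ubiquitin ligase, passed both controls in all 4 libraries with 8.36 and 8.90 over input in MOLM13, against 7.61 and 8.73 in THP1. Its folds over IgG were 4.47 and 4.09 in MOLM13, against 3.91 and 5.14 in THP1. RBL1, the retinoblastoma relative p107, had 9.07 and 8.52 over input in MOLM13, against 7.24 and 8.46 in THP1. RBL1 reached 4.62 over IgG in MOLM13 replicate 1, 2.85 in replicate 2, and 3.99 and 4.65 in THP1. RBL1 was thus lowest over input in THP1 replicate 1 and lowest over IgG in MOLM13 replicate 2.

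PAPOLA and PABPC1 were also among these sites, and WDR33 was among the 10 highest of THP1. PAPOLA, a poly(A) polymerase, had input log2 folds of 7.84 and 7.45 in MOLM13, against 8.25 and 8.52 in THP1. Over IgG it had 2.95 and 2.93 in MOLM13, just under the threshold, and 3.83 and 5.20 in THP1. PABPC1, the cytoplasmic poly(A)-binding protein, had 7.60 and 9.20 over input in MOLM13, against 8.85 and 7.99 in THP1, with 3.88 and 3.09 over IgG in MOLM13, against 3.39 and 4.89 in THP1. WDR33, a subunit of the complex that recognises the polyadenylation signal, was led by THP1, with 6.91 and 6.31 in MOLM13, against 8.49 and 8.74 in THP1 over input. Its folds over IgG were 3.51 and 2.29 in MOLM13, against 3.79 and 4.93 in THP1. At PAPOLA and WDR33 both THP1 replicates lay above both MOLM13 replicates over input.

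The remaining sites of the 10 strongest over all libraries lay in UBQLN1, a ubiquilin that delivers proteins to the proteasome, RANBP3, a cofactor of nuclear export, and TRIM52. Their lowest fold over input in any library was 7.30, 7.27 and 7.25. Over IgG, RANBP3 and TRIM52 were at 3 or more in 4 of 4 libraries and UBQLN1 in 3 of 4, with 2.97 in MOLM13 replicate 2. In all, GIT2, RNF130, RANBP3 and TRIM52 were over a log2 fold of 3 against IgG at their highest peak over input in each library. So was PABPC1, but a larger PABPC1 peak of MOLM13 replicate 2, with 2801 implied reads, had 2.72. Within the GIT2 site, smaller MOLM13 peaks had 1.99 in replicate 1 and 2.63 in replicate 2.

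**Figure D4:**
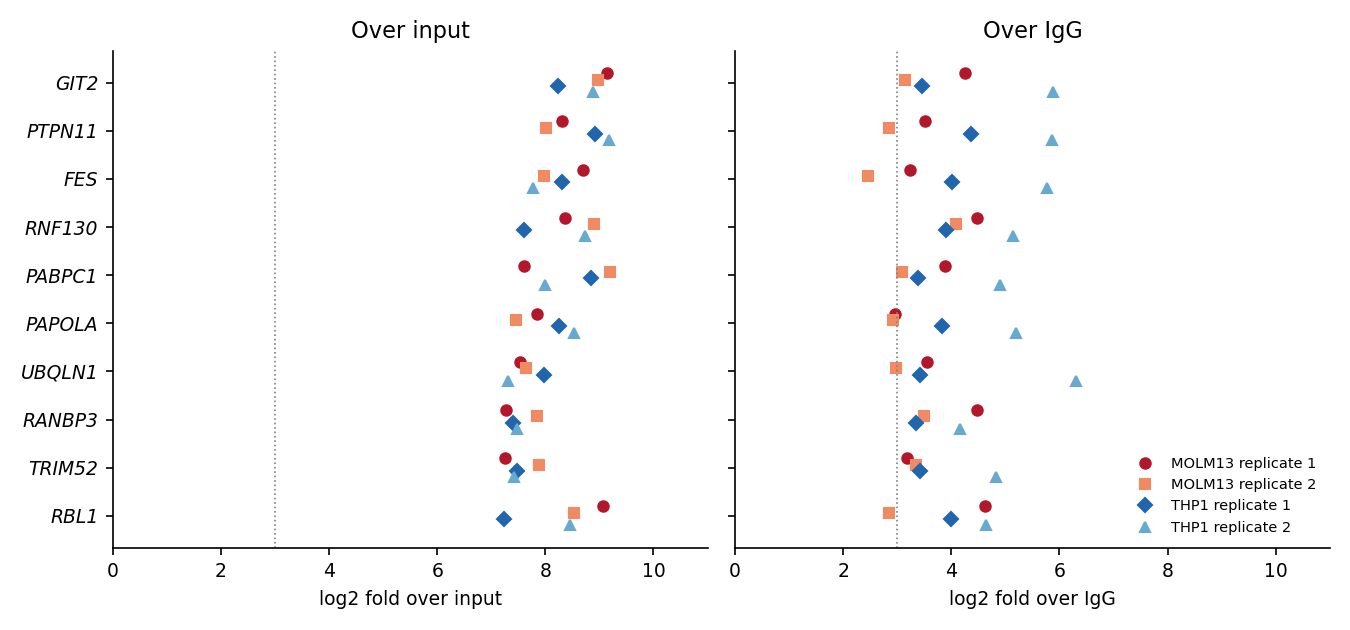
Log2 fold over input (left) and over IgG (right) in each immunoprecipitate for the 10 proximal intron sites with the highest lowest fold over input across the 4 libraries. Dotted lines mark 3. All input folds are above 7, while IgG folds run from 2.46 to 6.30, with THP1 replicate 2 the highest at every site but RANBP3, where MOLM13 replicate 1 was.

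Further genes were among the 10 highest of 1 line. EIF4G3, a scaffold of translation initiation, had folds over input of 6.89 and 7.85 in MOLM13, against 8.24 and 8.0 in THP1. UBR4, a ubiquitin ligase, had 4.76 in MOLM13 replicate 1, 7.40 in replicate 2, and 8.38 and 7.83 in the THP1 replicates. ELP2, a subunit of the Elongator complex, had 7.58 and 5.78 in MOLM13, against 8.28 and 8.24 in THP1. At UBR4 and ELP2 the MOLM13 replicates differed more from each other than the THP1 replicates did. RPL37A, a ribosomal protein, had 7.60 and 7.44 in MOLM13, against 7.14 and 7.75 in THP1, so the lines overlap there. A site that the authors named AL158825.2 had 8.42 and 8.53 in THP1. Its strongest peaks in MOLM13 had 6.50 and 8.06, and the one of replicate 2 was labelled noncoding exon. In THP1 replicate 2 an overlapping peak with 8.56 was labelled distal intron.

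CDK4, the kinase that opens the G1 phase, was high against both controls. Its MOLM13 peak at chr12:57750123-57750171 had a log2 fold over input of 8.69, and MOLM13 replicate 2 had 8.07, while THP1 had 6.95 and 7.79. Over IgG, CDK4 stood at 4.90 and 4.72 in MOLM13 and at 4.71 and 6.79 in THP1. The implied reads were 514 in the immunoprecipitate, 1 in input and 7 in IgG for MOLM13 replicate 1, and 638, 1 and 4 for replicate 2. FES had the same 514 and 1 in MOLM13 replicate 1 but 22 IgG reads, so 2 sites that input cannot separate differed over IgG.

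ZMYM4, a zinc finger protein, was among the 5 highest sites over IgG in both lines. It had 5.52 and 5.21 over IgG in MOLM13, against 5.26 and 5.80 in THP1, and 7.83 and 8.56 over input in MOLM13 against 6.19 and 5.80 in THP1. DOCK2, an activator of RAC in blood cells, had 5.83 and 4.94 over IgG in MOLM13, against 4.78 and 6.82 in THP1. These sites had IgG folds over 3 in all 4 libraries. CNTN4, a contactin, had 4.68 and 5.48 over IgG in MOLM13, against 3.26 and 4.68 in THP1.

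Ranked by the lower IgG fold of the THP1 replicates, NEDD4, a ubiquitin ligase, came first, with 3.73 and 5.09 in MOLM13, against 5.88 and 5.96 in THP1. COQ2, an enzyme of coenzyme Q synthesis, had 3.63 and 1.76 in MOLM13, against 5.77 and 5.73 in THP1. ATR, the kinase of the replication checkpoint, had 4.36 and 3.55 in MOLM13, against 5.58 and 6.0 in THP1. For NEDD4 and COQ2 in THP1 the implied IgG count was 1 in both replicates, so the IgG fold there is set by the immunoprecipitate reads, 294 and 192 for NEDD4 and 273 and 164 for COQ2. INVS, which encodes inversin of the cilium, had 3.09 and 2.97 in MOLM13, against 5.22 and 5.61 in THP1.

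MAFG, a small MAF transcription factor, led MOLM13 when pairs were ranked by the lower IgG fold of the replicates, with 5.25 and 5.56 at chr17:81918315-81918348 and its overlapping partner. Its THP1 replicate 1 peak had a log2 fold over input of 6.03 and no IgG row, and the THP1 replicate 2 peak was labelled 3′ UTR and had 7.60 over IgG. The label of 1 site can thus differ between libraries. At FES it differed within MOLM13 replicate 1, where the proximal peak and a distal one had the same fold over input.

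At the other end stood sites whose pair in 1 line passed the input threshold and had the lowest folds over IgG, all short of that threshold. IRF1, an interferon-responsive transcription factor, had input log2 folds of 4.68 and 3.71 in MOLM13, against 3.05 and 5.02 in THP1, for peaks near chr5:132485839-132486113 on the minus strand. Over IgG the same peaks had 0.70 and −1.10 in MOLM13, against −2.07 and −2.15 in THP1. In THP1 replicate 1 the implied reads were 70 in the immunoprecipitate, 4 in input and 59 in IgG. In THP1 replicate 2 they were 50, 1 and 72, for the peak with the higher fold over input. IRF1 was thus below IgG in 3 of 4 libraries.

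MOSMO, whose sequence is given above, also had IgG reads in number. Its proximal peaks at chr16:22008159-22008189 and chr16:22008107-22008199 had 3.45 and 3.49 over input, then −1.80 and −2.59 over IgG in the THP1 replicates, and the second had 135 implied IgG reads against 69 in the immunoprecipitate. The distal intron peak of the same gene near chr16:22029622-22029719 had 2.63 and 1.47 over IgG in MOLM13, against 2.11 and 3.75 in THP1. The low IgG folds were those of the peaks at its 5′ end. PNISR, a protein of nuclear speckles, had the lowest MOLM13 pair when ranked by the higher IgG fold of the replicates, with 3.14 over input and 0.57 over IgG in replicate 1, and 3.18 and 0.50 in replicate 2. INTS1, a subunit of the Integrator complex, had a pair with 4.32 and 3.19 over input, then 0.75 and 0.18 over IgG in THP1. Other peaks at these sites were higher over IgG. The strongest INTS1 peak over input had 1.60 in THP1 replicate 2 and 3.25 in MOLM13 replicate 1. That of PNISR had 1.10 in MOLM13 replicate 2, and 1.40 and 2.51 in THP1.

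THP1 had 8 genes with a proximal pair of log2 fold 5 or more in both replicates, clusters in both MOLM13 replicates, and no input peak there in MOLM13. MOLM13 had 0 such genes against THP1, out of 188 genes with a pair that strong, and THP1 had 249. The rule fixes this direction, so the following values are a description. SLC11A1, the metal transporter of phagosomes in macrophages, had 5.19 and 5.29 over input, then 3.95 and 4.28 over IgG in the THP1 replicates. The MOLM13 clusters that overlap it reached 1.02 and −0.43 over IgG. IPCEF1 had 5.33 and 5.49 over input, then 4.09 and 4.48 over IgG in THP1, against −0.079 and −0.72 over IgG in MOLM13.

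RLF, a zinc finger protein, led this group by the lower input fold of its replicates, with 5.69 and 6.24 in THP1, but had 2.45 and 3.65 over IgG. MLXIPL, a glucose-sensing transcription factor, had 6.01 and 5.23 over input in THP1 and 3.77 and 4.22 over IgG, against 1.87 and −1.28 over IgG in MOLM13. CACNB1, a calcium channel subunit, had 5.57 and 5.26 over input in THP1 and 3.32 and 4.26 over IgG. The 5 sites had IgG folds over 3 in THP1, except RLF in replicate 1, at 2.45. The levels of these transcripts in the lines were not compared, so binding and abundance cannot be told apart.

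Counted by gene, 524 genes had a proximal peak in both replicates of MOLM13, 12.2% of the 4291 genes with any peak in both, and 690 did in THP1, 13.8% of 5012. The lines shared 454 of these genes, 86.6% of those of MOLM13 and 65.8% of those of THP1. A single reproducible region was the rule, for 438 of 519 genes in MOLM13 and 585 of 686 in THP1. The genes with most regions were PRKDC, the DNA-dependent protein kinase, with 4 in MOLM13, and ATG13, an autophagy factor, FES, PIK3C2A, a lipid kinase, and SBNO1, with 4 each in THP1. EIF4G3, GART, an enzyme of purine synthesis, GTF2I and ITPA, which clears inosine nucleotides, had 3 in MOLM13, as CLIP2 had in THP1. Of the 6 PRKDC pairs 1 was enriched over IgG in both replicates, and of the 7 FES pairs in THP1 3 were.

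A minority of genes with proximal peaks also had a 3′ UTR peak, as did a minority of distal intron genes. In MOLM13 113 of the 524 genes, 21.6%, also had a 3′ UTR peak in both replicates, against 33.4% of the 4291, and in THP1 it was 138 of 690, 20.0%, against 30.2% of the 5012. Of genes with distal peaks, 19.1% in MOLM13 and 19.2% in THP1 had one. Distal peaks accompanied 52.5% of proximal genes in MOLM13 and 58.3% in THP1, where 59.8% and 64.0% of all genes with peaks had one. Proximal peaks came with neither kind in 205 and 246 genes. These are counts on genes of the same libraries, and the larger set holds the smaller one. The larger set also holds genes that entered only through a 3′ UTR peak or only through a distal one. A lower share among proximal genes is thus partly set by how the sets were built.

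Reported targets of the ZFP36 family formed a list drawn up with earlier results of these data known, so its counts are not independent evidence. Of its 32 genes, 21 had any peak in both MOLM13 replicates and 23 in THP1. A 3′ UTR peak was found in 20 of these genes in MOLM13 and 22 in THP1, where 33.4% and 30.2% of all genes with peaks had one. A proximal peak was found in 1 gene in each line, which is 4.76% and 4.35% against the 12.2% and 13.8% of all genes. Genes of the TIS11 family itself had peaks in 2 of 3 cases in MOLM13 and 3 of 3 in THP1, with no proximal one.

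Splicing factors and hnRNPs had proximal peaks in 4 of 21 genes with peaks in MOLM13, 19.0%, and in 5 of 22 in THP1, 22.7%, where all genes with peaks gave 12.2% and 13.8%. CELF1, which binds GU-rich RNA and regulates splicing and decay, had 6.61 and 6.52 over input in MOLM13, against 6.72 and 7.24 in THP1, but 2.17 and 1.70 over IgG in MOLM13 against 3.47 and 5.23 in THP1. RBM39, a splicing factor, had 6.41 and 5.11 over input in MOLM13, against 5.32 and 4.89 in THP1, with 3.10 and 2.76 over IgG in MOLM13, against 3.49 and 3.89 in THP1. HNRNPH1, which binds G-rich RNA, had 5.61 and 3.08 over input in MOLM13. Its folds over IgG were 3.63 and 1.31 in MOLM13, against 4.41 and 4.35 in THP1. PTBP1, the polypyrimidine tract-binding protein, had 4.87 and 4.28 over input in MOLM13, where its IgG folds were 2.57 and 1.34. In THP1 the IgG folds of PTBP1 were 2.06 and 3.48. TRA2A, a splicing activator, was added in THP1. The strongest CELF1 and PTBP1 pairs did not pass IgG in MOLM13, so these calls there rest on input. Those of RBM39 and HNRNPH1 passed IgG in MOLM13 replicate 1 alone, and that of PTBP1 in THP1 replicate 2 alone.

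Of mRNA decay and deadenylation genes 0 of 24 had a proximal peak in MOLM13 and 2 of 27 in THP1, 7.41%. All genes with peaks gave 12.2% and 13.8%. The 2 genes were AGO3, an Argonaute protein, and CNOT6, a deadenylase of the CCR4-NOT complex. Neither passed the IgG threshold in a THP1 replicate, with 1.81 and 3.23 over IgG for AGO3 and 2.89 and 2.62 for CNOT6. At AGO3 in THP1 replicate 2 the fold was over 3 and the −log10 p was under it. Of binders of AU-rich RNA 2 of 14 had a proximal peak in MOLM13, 14.3%, and 3 of 16 in THP1, 18.8%, beside the same 12.2% and 13.8%. They were CELF1, PABPC1 and, in THP1, IGF2BP2. Lymphoid and erythroid genes, included as markers of other cell types, had no peak of any kind in both replicates of either line, 0 of 20.

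Among myeloid transcription factors 2 of 19 genes in MOLM13, 10.5%, and 2 of 22 in THP1, 9.09%, had a proximal peak, IRF1 and MYB. All genes with peaks gave 12.2% and 13.8%. MYB, a driver of blood progenitor growth, had 5.51 and 5.15 over input in MOLM13, against 7.39 and 5.56 in THP1, at chr6:135199456-135199494. Over IgG it had 3.52 and 4.80 in MOLM13, against 6.14 and 4.92 in THP1. MYB was past the thresholds over both controls in 4 of 4 libraries, while IRF1 was past the IgG threshold in none.

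Among signalling genes 4 of 21 in MOLM13, 19.0%, and 4 of 27 in THP1, 14.8%, had a proximal peak, FES, FLT3 and PTPN11 among them, where all genes with peaks gave 12.2% and 13.8%. FLT3, a receptor kinase of progenitors, had 7.11 and 5.33 over input in MOLM13, against 5.68 and 5.09 in THP1. The folds over IgG of these peaks were 3.42 and 1.97 in MOLM13, against 1.85 and 4.09 in THP1. In MOLM13 replicate 2 adjoining FLT3 peaks with more implied reads, 466 and 632, had 3.09 and 3.53 over IgG.

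Chromatin regulators had a proximal peak in 4 of 34 genes in MOLM13, 11.8%, and in 7 of 35 in THP1, 20.0%, where all genes with peaks gave 12.2% and 13.8%. DNMT1, the maintenance DNA methyltransferase, had 6.85 and 7.57 over input in MOLM13, against 6.89 and 7.13 in THP1, with 4.40 and 2.90 over IgG in MOLM13, against 4.06 and 4.81 in THP1. EP300, a histone acetyltransferase, had 4.37 and 0.84 over IgG in MOLM13, against 3.25 and 3.42 in THP1. NCOR1, a corepressor, had 2.91 and 3.08 for its strongest MOLM13 pair, and its strongest THP1 pair, which lay beside it, had 3.89 and 4.10. NSD1, a histone methyltransferase, had 2.28 and 2.26 in MOLM13, against 3.50 and 5.21 in THP1. These 4 pairs passed IgG in both THP1 replicates, and in MOLM13 none did so in both.

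For the next 3 lists too, the share over all genes with peaks was 12.2% in MOLM13 and 13.8% in THP1. Of the HOXA programme and the MLL fusion partners 0 of 11 genes had a proximal peak in MOLM13 and 1 of 9 in THP1, 11.1%. That was KMT2A, the MLL gene, with 5.01 and 4.02 over input, then 2.77 and 2.02 over IgG. Apoptosis and cell cycle genes gave CDK4 and ATR in both lines, 2 of 25 in MOLM13, 8%, and 2 of 27 in THP1, 7.41%. The list of ribosomal protein and snoRNA host genes, which is partial and lacks RPL37A, gave RPS3, 1 of 5 in MOLM13, 20%, and 1 of 7 in THP1, 14.3%. RPS3 had 1.22 and −0.055 over IgG in MOLM13, against 3.77 and 2.57 in THP1.

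Proximal peaks lay farther along their genes than distal ones. Positions were measured along the RefSeq gene, a comparison chosen after the data had been seen. The median relative position, with 0 at the 5′ end and 1 at the 3′ end, was 0.53 and 0.53 in MOLM13 and likewise 0.53 and 0.53 in THP1 for proximal peaks. For distal peaks it was 0.38 and 0.38 in MOLM13, against 0.39 and 0.39 in THP1. Proximal minus distal averaged 0.15 ± 0.0058 (SD, n = 4), higher in 4 of 4 libraries, with an exact sign-flip p = 0.125 and an adjusted p = 0.15 over 6 measures. In genes shorter than 50000 bases the difference was 0.083.

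With each gene cut into 5 equal parts, the first held 15.9% of proximal peaks, averaged over the libraries, against 26.8% of distal ones, and the last held 18.2% against 10.5%. In the bases closest to either end, proximal peaks were the more frequent. Within 2000 bases of the 5′ end lay 6.08% of proximal peaks against 1.37% of distal ones, and within the same distance of the 3′ end 2.25% against 0.51%. The genes differed too. The median length of genes with proximal peaks was 53868 and 52993 bases in MOLM13, against 55949.5 and 56505 in THP1. For genes with distal peaks it was 80540 and 82490.5 bases in MOLM13, against 78493 and 80489 in THP1. The labels themselves depend on intron length, since a short intron has no distal part, and the part of that in these differences was not tested.

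**Figure D5:**
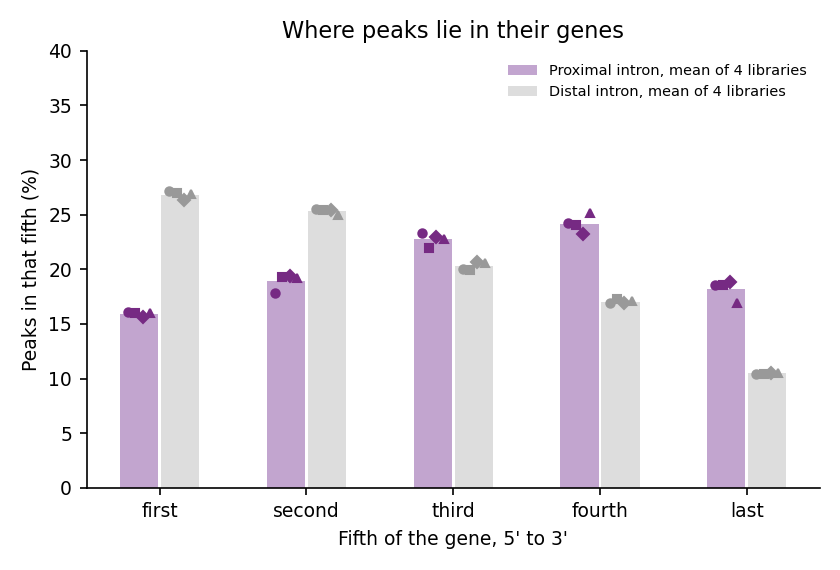
Share of peaks (%) in each of 5 equal parts of the RefSeq gene from 5′ to 3′, proximal intron to the left of distal intron. Bars are means of the 4 libraries, and circles, squares, diamonds and triangles are MOLM13 replicates 1 and 2 and THP1 replicates 1 and 2. The first part holds 15.9% of proximal and 26.8% of distal peaks, and the last holds 18.2% and 10.5%.

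Near the gene start IgG enrichment was not clearly different. Among proximal peaks within 2000 bases of the 5′ end, 35.7% and 23.7% were enriched over IgG in MOLM13, against 38.5% and 47.4% in THP1. Of those farther in, 41.2% and 21.4% were in MOLM13, against 38.7% and 58.2% in THP1. The difference averaged −3.53 percentage points ± 5.80 (SD, n = 4; exact sign-flip p = 0.375), and 56 and 59 peaks in MOLM13, against 78 and 78 in THP1, stand behind the shares near the start.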

How the data were processed

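The deposited input tables give, per the file headers, the log2 fold and the −log10 p over input of each peak with gene and region, and the deposited IgG lists give the log2 fold and the −log10 p over IgG for every cluster. Clusters were called per immunoprecipitate. Tools named in the submitters' processing notes are STAR 2.5.0c, Picard 2.6.0 and cutadapt 1.14, with the builds hg19, GRCh37 and hg38. No source used here gives the peak caller, the test or read totals, so depth is known only through implied reads. Coordinates are hg38, 1-based. The tables were joined on identical coordinates, overlap needed 1 base on the same strand, and symbols were matched to RefSeq (1026 of 1060). Libraries were compared with exact sign-flip or permutation tests, two-sided (Python 3.11.15, scipy 1.17.1). Intervals are 95% Wilson and cover counting error only. The search for implied reads was tested on simulated data, where 100% of 500 simulated peaks came back up to a common factor. The true steps were given to that search, so how the steps were found was not tested. The input step was set from the smallest gap between the commonest unlogged folds over input, taken as 1 more read over 1 input read. The IgG step was set by taking the commonest fold of a cluster as 3 reads over 1. Another choice of either step would change the implied counts. Members and lists were chosen with earlier results of these data known. Named sites were the 10 highest over input per line and over all libraries, the 5 highest and 3 lowest over IgG per line, up to 5 limited to 1 line, up to 4 per list and 5 genes per line with most regions. No motif search was run, since no genome was used here. Some sites that the rule names are not reported here.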

Additional observations from a re-analysis of the deposited data

Results flagged for a closer look

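All 14 differences of proximal peaks from distal or 3′ UTR ones were searched for opposite signs in the lines, in both replicates of each. Proximal minus distal peaks showed this for 4 measures, and the difference between the lines was not tested. For the share enriched over IgG the differences were 0.39 and 2.12 percentage points in MOLM13, against −2.40 and −1.64 in THP1, which puts the mean of MOLM13 3.27 above that of THP1. For the median log2 fold over IgG they were 0.037 and 0.069 in MOLM13, against −0.076 and −0.041 in THP1, a gap of 0.11. For the share of peaks with a log2 fold over IgG of 1 or less they were −0.36 and −0.52 percentage points in MOLM13, against 0.70 and 0.99 in THP1, a gap of −1.28. For the overlap with the other replicate they were −0.49 and −0.22 percentage points in MOLM13, against 0.84 and 0.12 in THP1, a gap of −0.83. The first 3 are measures of the same IgG values, and the overlap values of the replicates of a line come from 1 pair of peak lists.

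Peaks with the label for proximal introns of noncoding transcripts, which no comparison used, numbered 249 over the 4 libraries. Of these, 95, 38.2%, were also enriched over IgG. By library the share was 48.3% and 16.7% in MOLM13, against 31.8% and 52.1% in THP1. Among all peaks over input it was 45.0% and 28.1% in MOLM13, against 43.2% and 59.1% in THP1.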

How the results depend on the processing

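Of 58 recomputed values, 5 changed direction and 4 without a test moved by more than the limit used. The mean number of proximal peaks per library was 1138, and 431 at a log2 fold over input of at least 5. Their share of all input peaks, 6.79%, became 7.38% at a fold of at least 4, 7.50% at 5 and 7.01% with touching peaks merged. The proximal minus distal share enriched over IgG, −0.38 percentage points, became 0.039 with IgG folds centred on the median of all clusters, and ran from −1.21 to 0.29 with 1 library left out, above 0 without THP1 replicate 1 (0.29) or THP1 replicate 2 (0.038). The MOLM13 minus THP1 share of all peaks, 0.012, ran from −0.083 to 0.11, below 0 without MOLM13 replicate 1 (−0.083) or THP1 replicate 2 (−0.044). With the replicate number as a block the line differences stayed 0.012 and −16.8 percentage points, with an exact permutation p = 1 for each, and 2 pairs cannot test the pairing. The line difference in the IgG share, −16.8, became −10.6 with centred IgG folds and ran from −26.2 without MOLM13 replicate 1 to −7.34 without MOLM13 replicate 2, with −26.0 without THP1 replicate 1 and −7.59 without THP1 replicate 2. The causes were not tested. The proximal minus 3′ UTR share enriched over IgG ran from −20.4 to −13.7 with 1 library left out and was −17.2 among peaks with enough implied reads, an alternative chosen after seeing the data. Depth is known only through implied reads, and no p here can pass 0.05.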
